A study of Mus musculus with 2 samples.

Results

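The cells described here are Pdgfra-positive fibroblasts of the amputated mouse digit that carried several of 8 marker transcripts, named after Dlk1, Lpl and Pi16. They were chosen by their own readout: a cell was a member when it passed the filters on detected genes and mitochondrial transcripts, had at least 1 Pdgfra UMI (a unique molecular identifier, which counts 1 captured transcript), had a UMI of at least 4 of the 8 genes Lpl, Dlk1, Ebf2, Agtr2, Cygb, Lbp, Tmeff2 and Pi16, had a UMI of at most 3 of the 5 genes Chodl, Sema3a, Zfp385b, Cadps and Cdh6, had fewer than 10 Prg4 UMIs, and had no Tnmd UMI. The rule took 683 of 9967 filtered cells, 444 of 6715 in the FGF8 library and 239 of 3252 in the BSA library. Both libraries came from hindlimb digits 2 and 4 of neonatal ICR mice whose middle phalanx (P2) was amputated on postnatal day 3. On postnatal day 7 a microcarrier bead was placed in the wound, soaked in FGF8 at 500 ng/µl for the treated digits or in 0.1% BSA for the controls, and the tissue was collected 24 h later, on postnatal day 8. Each library was 1 pool of 20 digits from 5 mice, with the epithelium removed before enzymatic dissociation, and was captured with a 3′ droplet method. There was thus 1 library per treatment, so no p-value was computed. Every interval below is a 95% interval that covers counting error only, and the spread between pools of mice is unknown.

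Fibroblasts of connective tissue share a matrix program of fibrillar collagens and small proteoglycans but differ in what else they make. A population marked by Pi16 and Dpp4 is known from the adventitia and fascia of many organs, where it surrounds vessels and is regarded as a reservoir for other fibroblasts and for preadipocytes. Dlk1, also called Pref-1, is an imprinted membrane protein of preadipocytes that holds back adipocyte differentiation. Lpl is the lipase that releases fatty acids from circulating lipoproteins, and Ebf2 is a transcription factor of adipocyte precursors. Agtr2 is the type 2 angiotensin receptor, Cygb an oxygen-binding globin of fibroblasts, Lbp a binding protein for bacterial lipopolysaccharide, and Tmeff2 a transmembrane protein with follistatin-like domains. FGF8 acts through FGF receptors and the ERK cascade, which switches on feedback genes of the Spry, Dusp and Etv families.

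Members made up 6.61% of the filtered cells with FGF8 (exact binomial interval 6.03 to 7.23) and 7.35% with BSA (6.48 to 8.3), so that the intervals overlapped. Among Pdgfra-detected cells the shares were 14.1% (12.9 to 15.3) of 3158 and 15.2% (13.4 to 17.0) of 1577. The libraries differed in the sex of their cells, called from Xist against 4 Y-linked genes: 26.0% of the called members were female with FGF8 and 77.9% with BSA. Within female-called cells the share of members was 8.95% with FGF8 and 8.54% with BSA, and within male-called cells 8.32% and 9.27%. Sex and treatment could not be told apart in the pooled values, and ratios within each sex are therefore given beside the main results. The deposited libraries held 124889213 and 67739460 UMIs in 7249 and 3703 barcodes. Members held a median of 20772 UMIs and 5140 detected genes per cell with FGF8, and 24564 UMIs and 5433 genes with BSA. The libraries shared 6 cell barcodes, of which 1 belonged to a member, in BSA. Before the limits on the other fibroblast groups were applied, 596 and 341 cells had Pdgfra and 4 or more markers, and the Tnmd limit removed most of those then left out, 133 and 92.

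The 8 marker genes chose the cells, so their values describe the choice and are no finding. Levels are given in CPM, UMIs per 1000000 UMIs of the summed cells. Dlk1 (chromosome 12, 109418749 to 109429262, + strand of GRCm39) stood at 716 CPM in FGF8 members and 971 CPM in BSA members, against 77.2 and 97.5 CPM in the other Pdgfra-detected cells. Lpl (chromosome 8, 69284603 to 69360100, + strand) stood at 295 and 369 CPM against 56.9 and 75.7 CPM. Pi16 (chromosome 17, 29536654 to 29549567, + strand) stood at 111 and 105 CPM against 10.8 and 16.2 CPM. All 8 were thus higher in members, and few cells carried the whole set. All 8 markers were detected in 21 FGF8 members and 19 BSA members, whereas exactly 4 were detected in 144 and 67. Just outside the threshold were 172 FGF8 and 95 BSA cells with exactly 3 markers, in which Dlk1 was 209 and 147 CPM and Pi16 23.2 and 31.6 CPM. In the members with exactly 4, Dlk1 was 345 and 356 CPM and Pi16 64.3 and 40.2 CPM.

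Detection depends on depth, so each cell was also thinned to 5000 UMIs, which left out 10 FGF8 and 3 BSA members with fewer. At equal depth Dlk1 was detected in 63.4% of FGF8 members and 64.8% of BSA members and Pi16 in 32.9% and 26.3%. The background of free RNA was read from macrophage barcodes and endothelial barcodes that had no Pdgfra UMI, at a median of 12698 and 12910 UMIs with FGF8 and of 15424 and 12565 with BSA. There, after thinning, Dlk1 was detected in 4.01% and 3.12% with FGF8 and in 1.78% and 2.67% with BSA. Pi16 was detected in at most 1.33% of these barcodes. Lpl and Lbp were found more often there. Lpl was detected in 36.9% of FGF8 and 46.2% of BSA macrophage barcodes, a gene that macrophages themselves express, and Lbp in 18.8% and 32.0% of endothelial barcodes.

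**Figure D1:**
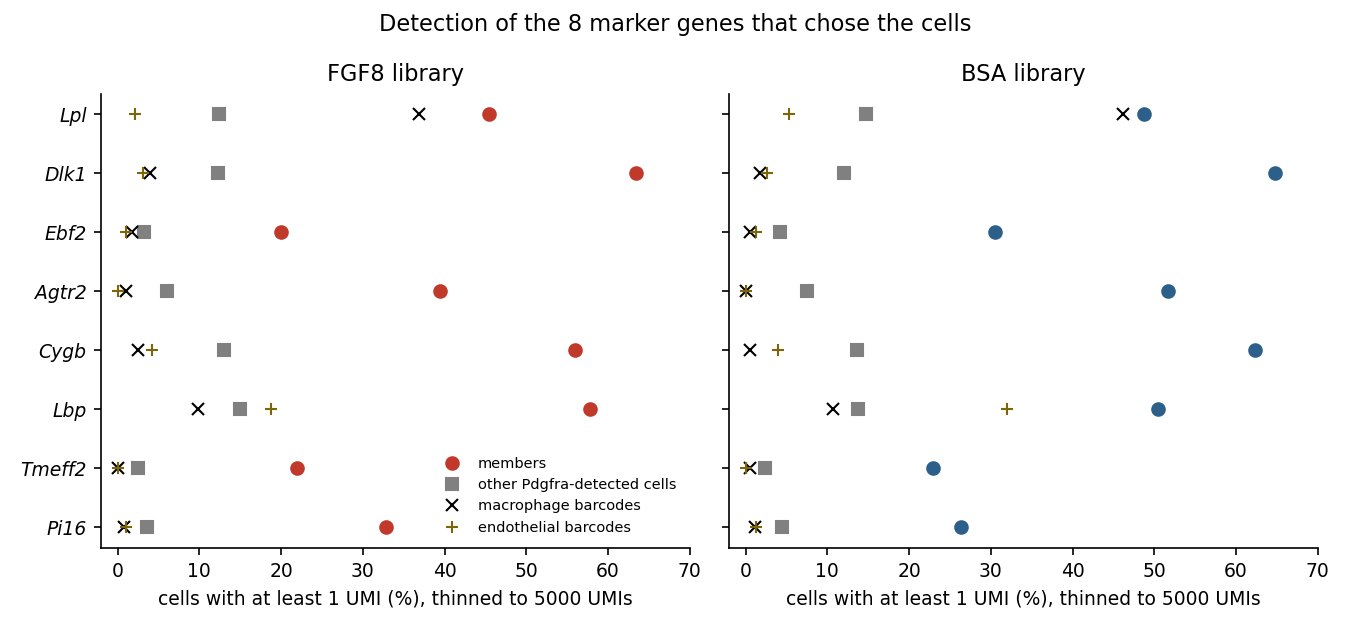
Percentage of cells with at least 1 UMI of each marker gene after thinning to 5000 UMIs (horizontal axis), in the FGF8 library (left) and the BSA library (right). Circles are members, squares the other Pdgfra-detected cells, crosses macrophage barcodes and plus signs endothelial barcodes. Members lie to the right because these genes chose them, with Dlk1 at 63.4% of FGF8 members and 64.8% of BSA members.

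The name fibroblast was checked against 8 markers, of which the rule used Pdgfra. They included Col1a1, Col3a1, Dcn and Dpt and summed to 29162 CPM in FGF8 members and 46969 CPM in BSA members. After thinning, Dcn, the proteoglycan decorin, was detected in 97.5% and 99.2% of members, against 17.7% and 28.0% of endothelial barcodes. Dpt, which encodes dermatopontin, was detected in 75.8% and 80.9% against 2.08% and 13.3%. Collagen RNA was widespread as background, with Col1a1 in 54.2% and 72.0% of thinned endothelial barcodes. Mature adipocyte markers were close to absent. Adipoq and Cidec were at 0 UMIs in both libraries, which allows up to 3 UMIs, and the 6 markers together reached 0.477 and 0.166 CPM. Markers of other cells were present in some members. Keratinocyte markers summed to 576 CPM with FGF8 and 54.8 CPM with BSA, and a single FGF8 member held 5469 of these UMIs. Pericyte and smooth muscle markers summed to 372 and 259 CPM, and 170 of 444 FGF8 and 105 of 239 BSA members carried 2 or more of the 8. At least 2 chondrocyte markers were found in 150 and 83 members. Macrophage markers summed to 148 and 38.6 CPM, and endothelial markers to 25.1 and 23.2 CPM. Globin and other erythroid markers summed to 3051 and 3334 CPM, with up to 7965 UMIs in 1 FGF8 member and 15176 in 1 BSA member. At least 2 macrophage, endothelial, Schwann or keratinocyte markers were found in 114 FGF8 members (25.7%) and 53 BSA members (22.2%), here called possible doublets. Ratios without them are given for some lists and genes.

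Against the other Pdgfra-detected cells, members had higher levels of many adventitial fibroblast and complement genes and of some angiotensin, cytokine and pericyte genes. Since the members were chosen within the same cells, these ratios are a description without a test. Over all genes, 2.41% had a log2 ratio above 1 in both libraries and 3.79% below -1 in both. Of the 20 genes of the Pi16 and Dpp4 adventitial list, which did not hold Pi16, 9 were above 1 in both, and the list median was 1.10 with FGF8 and 1.13 with BSA. Clec3b, which encodes tetranectin, had 421 and 943 CPM in members against 83.2 and 257 CPM in the other cells. Cd248, or endosialin, had 200 and 249 CPM against 63.7 and 92.7 CPM. Dpp4, the peptidase CD26, was low throughout, at 11.9 and 37.9 CPM in members against 5.44 and 18.0 CPM. Anxa3, Bmp7 and Uchl1 of the same list were lower in members than in the other cells in both libraries, so the list did not move as a block.

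Of 9 complement genes compared, 6 were above 1 in both libraries, with list medians of 1.68 and 1.49. C4b, a central component of the classical pathway, was at 43.1 and 48.0 CPM in members against 8.37 and 9.28 CPM. Cfb, a protease of the alternative pathway, was at 71.3 and 70.9 CPM against 14.2 and 14.3 CPM, and C1s1, a protease that starts the classical pathway, at 121 and 166 CPM against 24.5 and 37.7 CPM. Serping1, an inhibitor of the C1s1 protease, was at 394 and 480 CPM against 123 and 171 CPM. Masp1 was lower in members in both libraries. Of 16 cytokine and chemokine genes, 5 also stood above 1 in both, namely Cxcl12, Cxcl5, Ccl11, Il6 and Il33. Cxcl12, the ligand of CXCR4, was at 671 and 716 CPM against 172 and 209 CPM, and Ccl11, the eosinophil chemoattractant eotaxin, at 82.4 and 95.2 CPM against 17.8 and 30.7 CPM.

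Imprinted and elastic fibre genes were higher in members to a smaller degree. Of 18 imprinted growth genes, 5 were above 1 in both libraries, with medians of 0.74 and 0.58. They included Meg3, Rian and Mirg, noncoding RNAs of the imprinted domain that holds Dlk1. Meg3 had a log2 ratio of 1.26 with FGF8 and 1.07 with BSA, Rian 1.31 and 1.15, and Mirg 1.67 and 1.19. The cell cycle inhibitor Cdkn1c had 1.24 and 1.33. Of 16 elastic fibre genes, 4 were above 1 in both, among them the microfibril protein Mfap5 (1.20 and 1.27) and Efemp1, which encodes fibulin-3 (2.09 and 2.26). Of the angiotensin genes, the converting enzyme Ace (2.23 and 2.66) and the type 1 receptor Agtr1a (1.82 and 2.54) were higher in members, as was Agtr2, which the rule used. Renin (Ren1) had no UMI in members. Of 8 pericyte and smooth muscle markers 3 were above 1 in both, with medians of 1.46 and 0.23.

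Among genes with at least 100 UMIs in each library over members and other Pdgfra-detected cells, the 12 with the largest ratio in both were Saa3, Ncam2, Lrrtm4, Cadm3, Kcnj8, Fmo1, C4b, Abcc9, Cfb, Ildr2, Col6a6 and Naalad2. Saa3, an acute phase apolipoprotein, stood at 80.4 and 43.9 CPM in members against 5.08 and 2.49 CPM in the other cells, but only 36 FGF8 and 7 BSA members carried it, and 1 cell held 192 of its 843 UMIs with FGF8 and 134 of 265 with BSA. Kcnj8 and Abcc9 encode the pore and the regulatory subunit of a potassium channel gated by ATP and are also used as pericyte markers. Kcnj8 was detected in 12.8% and 26.8% of members, and Abcc9 in 10.1% and 18.8%. Col6a6, a chain of collagen VI, was detected in 27.5% of FGF8 and 43.5% of BSA members, against 6.41% and 9.87% of the other cells. At the other end stood, among others, the bone matrix genes Ibsp and Bglap, with Hs3st6, Dkk1, Rspo4, Mmp13 and Col22a1. Ibsp had 3 UMIs in all FGF8 members and 1 in all BSA members, against 55.6 and 103 CPM in the other cells. Scx, a transcription factor of tendon, was at 5.05 and 10.4 CPM against 48.6 and 62.1 CPM, and Acan, the cartilage proteoglycan, at 35.9 and 33.6 CPM against 192 and 216 CPM. The Tnmd limit of the rule removes tenocytes, so the tendon values are partly fixed by it.

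**Figure D2:**
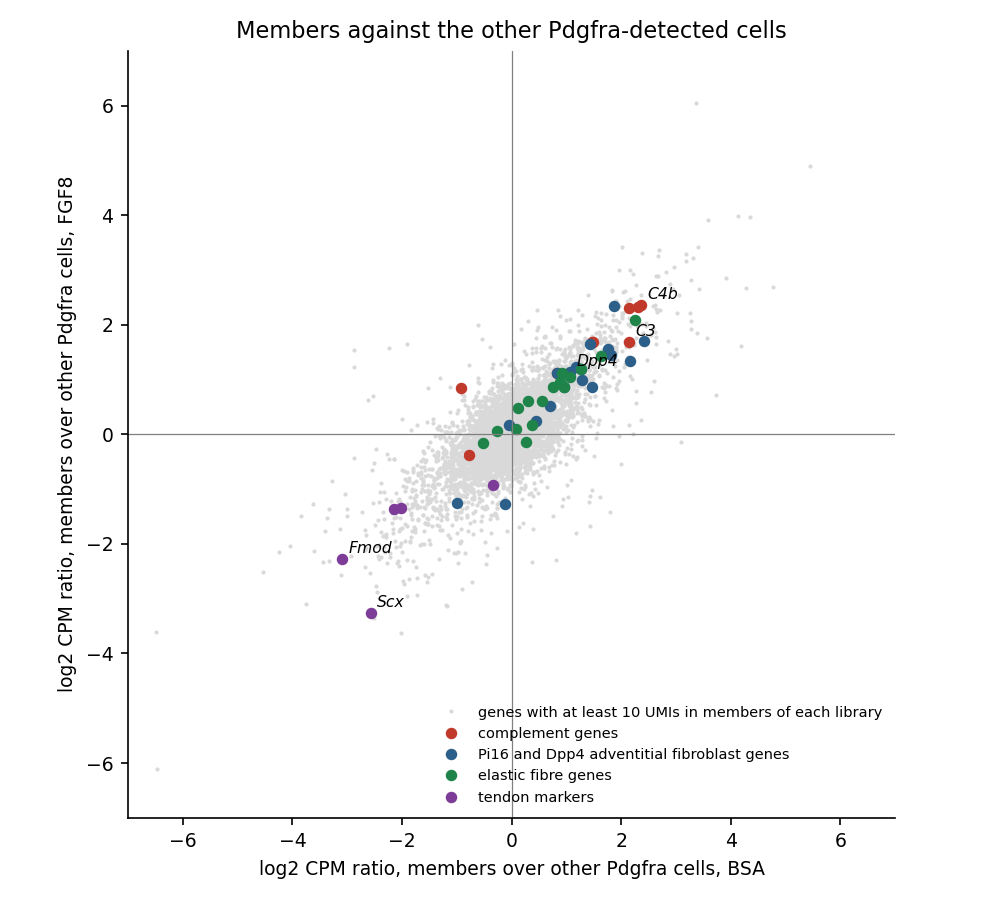
Log2 CPM ratio of members over the other Pdgfra-detected cells in the BSA library (horizontal) and the FGF8 library (vertical), 1 point per gene with at least 10 UMIs in members of each library. Most complement genes (red) and most genes of the Pi16 and Dpp4 list (blue) lie in the upper right, elastic fibre genes (green) nearer the centre, and tendon markers (purple) at the lower left, with C4b at 2.37 and 2.36 and Scx at -2.57 and -3.27.

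The comparison of FGF8 with BSA asked how the same kind of cell differed 1 day after the growth factor. Ratios are log2 of CPM in FGF8 members over CPM in BSA members. Of 15641 genes with at least 10 UMIs, 1245 (7.96%) were above 1 and 589 (3.77%) below -1, 50.6% were above 0, 49.4% were below 0, and the median over all genes was 0.01. Of the 18 lists of gene functions, those of G2 and mitosis and of cytokines stood furthest above that median. Fibrillar collagen and imprinted growth lists stood furthest below it, while feedback genes of FGF signalling, AP-1 genes, preadipocyte genes and complement genes lay near it. In the other Pdgfra-detected cells the medians had the same sign, at 1.20 for G2 and mitosis, 1.26 for cytokines, -0.77 for collagens and proteoglycans and -0.59 for imprinted genes.

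**Figure D3:**
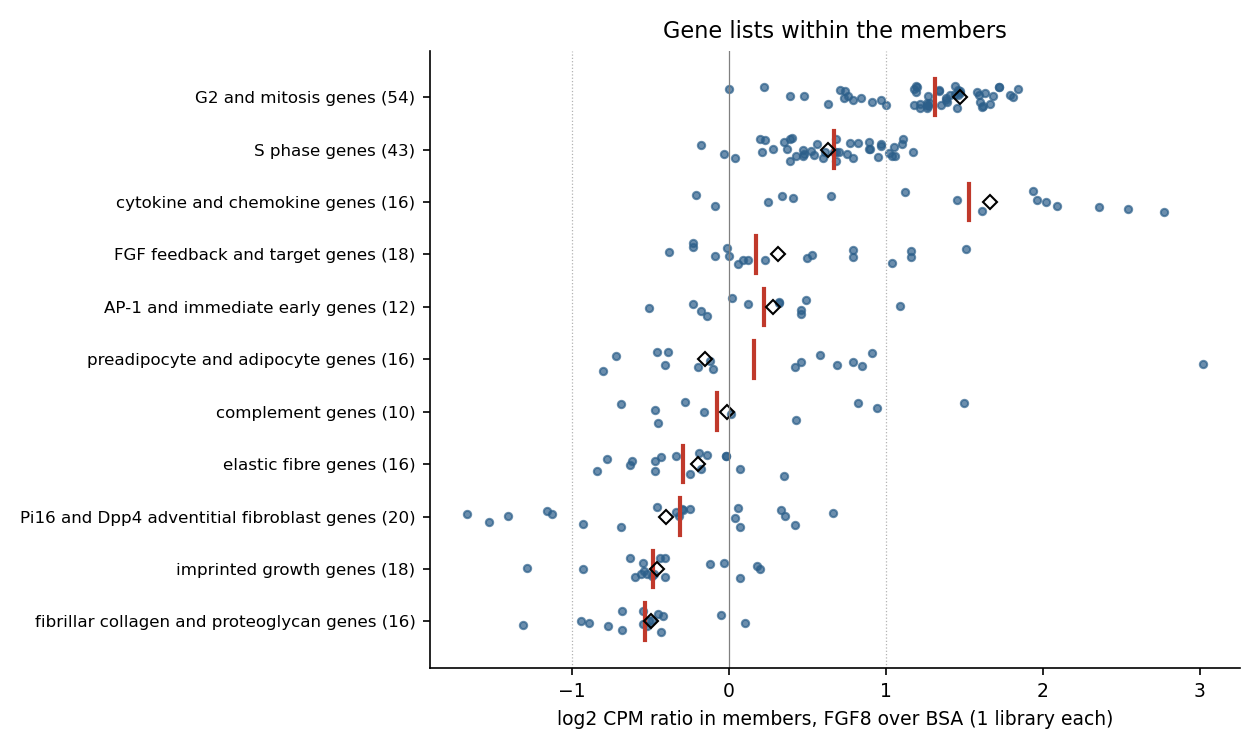
Log2 CPM ratio of FGF8 over BSA within members (horizontal axis) for 11 gene lists, with 1 point per gene and the number of genes measured after each name. Red bars are list medians and open diamonds the medians without possible doublets, and dotted lines mark ratios of -1 and 1. G2 and mitosis genes lie mostly beyond 1 (median 1.31), and collagen and proteoglycan genes lie almost all below 0 (median -0.53).

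Of the 16 cytokine and chemokine genes, 10 were above 1, where 7.96% of all genes were, and the median was 1.53. The female-called members alone gave 2.05 and the male-called 0.83. Leaving out possible doublets gave 1.66. Cxcl5, a neutrophil chemoattractant, stood at 1243 CPM with FGF8 and 242 CPM with BSA (log2 ratio 2.36, interval 2.28 to 2.44), with a Cxcl5 ratio of 2.82 among female and 1.13 among male cells. At equal depth Cxcl5 was detected in 52.1% of FGF8 members and 22.5% of BSA members, against 6.25% and 0% of endothelial barcodes. Cxcl14, a chemokine of skin fibroblasts, stood at 1330 and 312 CPM (2.09, 2.02 to 2.16), and its ratio was 2.69 among female cells and 0.81 among male cells. The monocyte attractants Ccl2 and Ccl7 lay next to each other in level, with Ccl2 at 527 and 135 CPM (1.96) and Ccl7 at 497 and 129 CPM (1.94). After thinning, Ccl2 was detected in 38.9% and 16.5% of members, 47.1% and 36.7% of macrophage, and 13.5% and 13.3% of endothelial barcodes. For Ccl7 these were 50.7% and 22.5%, 39.8% and 39.6%, and 8.33% and 1.33%.

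Il1rl1, the receptor of IL-33, was at 141 CPM with FGF8 and 20.7 CPM with BSA (2.77, 2.50 to 3.04), while its ligand Il33 was at 144 and 108 CPM (0.41). Cxcl2, which also attracts neutrophils, was at 140 and 24.2 CPM (2.54), and Ptgs2, the inducible cyclooxygenase, at 47.6 and 11.8 CPM (2.02). All 3 were detected in a minority of members, Il1rl1 in 149 of 444 with FGF8 and 28 of 239 with BSA. Thinned Cxcl2 was detected in 18.2% and 5.51% of members, 15.7% and 11.8% of macrophage, and 3.12% and 4.00% of endothelial barcodes. Cxcl12 and Ccl11, which were higher in members than in other cells, were close to equal between the libraries, with ratios of -0.09 and -0.21. Macrophage markers, which moved with these genes, had a median ratio of 1.69 in members, with all 8 above 0, where 50.6% of all genes were. The cytokine median without the possible doublets was 1.66. That choice left out every member with 2 or more macrophage markers, but it did not remove free macrophage RNA. The part of macrophage RNA in the cytokine values was not tested.

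**Figure D4:**
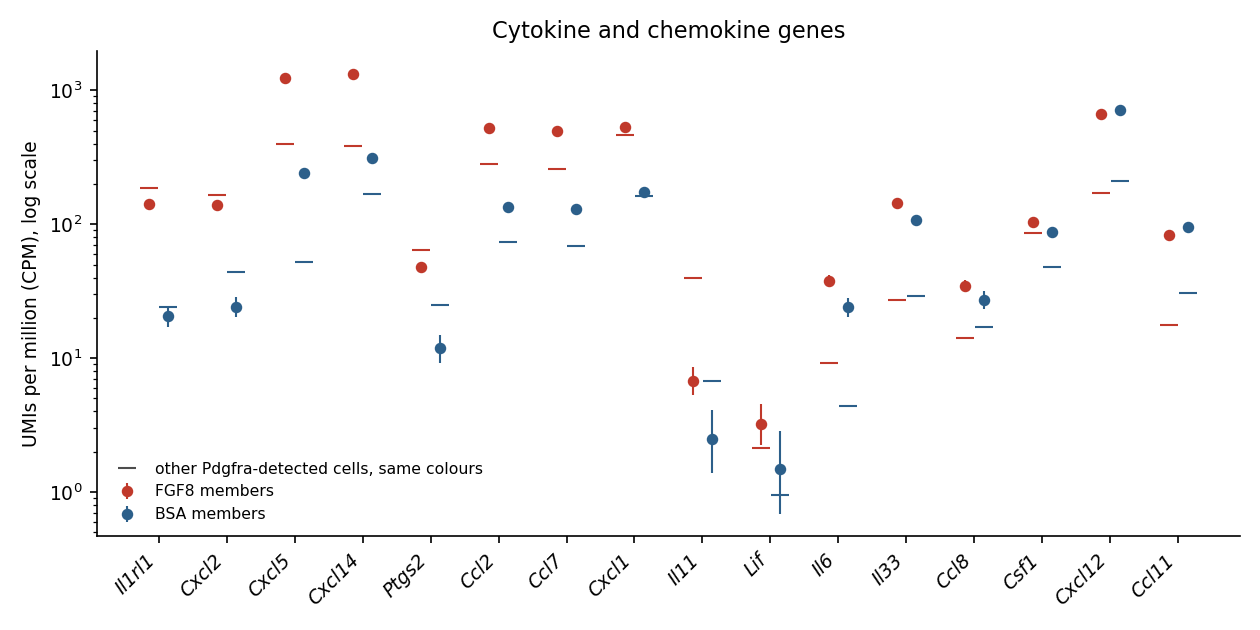
Level in CPM (log scale) of the 16 cytokine and chemokine genes in FGF8 members (red points) and BSA members (blue points), with 95% counting intervals, ordered by the ratio of FGF8 to BSA. Short horizontal bars give the other Pdgfra-detected cells of the same library. Cxcl14 and Cxcl5 are the highest in FGF8 members, at 1330 and 1243 CPM, and Cxcl12 and Ccl11 differ little between the libraries.

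Genes of G2 and mitosis had a median ratio of 1.31, with 40 of 54 above 1 and 53 above 0. Of all genes, 7.96% were above 1 and 50.6% above 0. Mki67, the proliferation antigen, was at 152 CPM with FGF8 and 58.5 CPM with BSA (1.38, 1.21 to 1.55), Top2a, which untangles replicated DNA, at 277 and 102 CPM (1.44), and the mitotic kinase Plk1 at 46.8 and 9.61 CPM (2.28). After thinning, Mki67 was detected in 24.2% of FGF8 members and 6.78% of BSA members, beside 26.0% and 34.7% of endothelial barcodes, which can divide themselves. The BSA members were the more deeply sequenced. S phase genes had a median of 0.67, with 41 of 43 above 0 and 7 above 1. The S phase median was 0.78 among female and 0.19 among male cells, and 0.19 without possible doublets when erythroid markers were counted as well. Rad51ap1 (1.11), of DNA repair, and Gmnn (1.05), the replication licensing inhibitor, turned to -0.06 and -0.05 under that last choice. Among female cells the G2 and mitosis median was 1.58, and among male cells 0.95. Against the other Pdgfra-detected cells of the same library the members' median was -0.11 with FGF8 and -0.19 with BSA. Without the 10% of members with the most UMIs the median was 2.11.

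Genes known to follow FGF signalling stood mixed. Of 18 feedback and target genes, 4 were above 1, where 7.96% of all genes were, and none was below -1. Above 0 were 13, where 50.6% of all genes were. The list median was 0.17 (0.62 among male and 0.31 among female cells), and 0.47 in the other Pdgfra-detected cells. The 4 were Fosl1, an AP-1 subunit downstream of ERK (47.3 and 16.6 CPM, ratio 1.51), Dusp6, the ERK phosphatase (11.4 and 5.13 CPM, 1.16), Etv4 (6.29 and 2.82 CPM, 1.16) and Dusp5 (12.3 and 5.96 CPM, 1.04). After thinning, Dusp6 was detected in 4.38% of FGF8 members, against 28.8% of macrophage and 32.3% of endothelial barcodes. Dusp5 was detected in 6.22%, against 9.49% and 12.5%. Dusp6 and Dusp5 were thus detected no more often in FGF8 members than in those barcodes. With BSA, Dusp6 was detected in 2.12% of members, 23.7% of macrophage and 26.7% of endothelial barcodes. For Dusp5 these shares were 3.81%, 8.28% and 4.00%. Whether macrophages and endothelial cells express these 2 genes themselves was not tested, so their barcodes may not show free RNA alone. With FGF8, Fosl1 was detected in 13.8% of members, against 1.82% of macrophage and 5.21% of endothelial barcodes. Etv4 was also detected more often in FGF8 members than in those barcodes. The Sprouty genes lay close to 0, with Spry1 at -0.23, Spry2 at 0.23 and Spry4 at 0.12. Ccnd1, the G1 cyclin, was at 95.2 and 95.1 CPM in members (0.00), whereas in the other Pdgfra-detected cells it was at 325 and 101 CPM (1.68). Of the receptors, Fgfr1 was at 213 and 178 CPM and Fgfr2 at 101 and 110 CPM, and none of the 5 differed by more than 1. Immediate early genes, which tissue dissociation can also switch on, had a median of 0.22, and of the 12 Ier3 alone was above 1 (1.09).

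Secreted proteases and inhibitors were split, with 5 of 21 measured above 1 and 1 below -1, where 7.96% and 3.77% of all genes were. Mmp3, or stromelysin, was at 176 and 23.0 CPM (2.93), and after thinning it was detected in 22.4% and 6.78% of members against 10.4% and 0% of endothelial barcodes. Timp1, an inhibitor of metalloproteinases, was at 999 and 358 CPM (1.48), detected in 84.3% and 62.3% of thinned members against 37.5% and 16.0% of endothelial barcodes. The remaining 3 genes above 1 were detected in thinned FGF8 members less often than in macrophage barcodes. Plau, the urokinase (1.71), was found in 6.91% of members, 20.4% of macrophage and 12.5% of endothelial barcodes. Mmp13 (3.06, and -0.14 with at least 3 markers) was found in 1.38%, 4.01% and 3.12%, and Adam8 (3.14) in 2.53%, 36.9% and 0%. Adamts19 was the gene below -1, at 27.1 and 117 CPM (-2.11, -2.31 to -1.91). It was detected in 23.2% of FGF8 and 49.4% of BSA members before thinning, and in 11.5% and 25.8% after it. The Adamts19 ratio was -2.77 among female and -1.11 among male cells.

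Matrix genes were lower with FGF8. Of 16 fibrillar collagen and proteoglycan genes, 15 were below 0, where 49.4% of all genes were, and the median was -0.53. Col1a1, a chain of type I collagen, was at 6095 CPM with FGF8 and 11682 CPM with BSA (-0.94), and Col3a1 at 10470 and 16746 CPM (-0.68). Ogn, or osteoglycin, was the only gene of the list below -1, at 98.9 and 246 CPM (-1.31). Prelp was the only gene above 0 (0.10), and Bgn was at -0.05. Elastic fibre genes had a median of -0.29, with 14 of 16 below 0 and elastin (Eln) at 1687 and 3020 CPM (-0.84).

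Imprinted growth genes were also lower, with 15 of 18 below 0, where 49.4% of all genes were. Their median was -0.49 (-0.43 among female and -0.20 among male cells). It was -0.13 without possible doublets when erythroid markers were counted as well, which left 84 and 79 members. Cdkn1c, which encodes the cyclin-dependent kinase inhibitor p57, was at 440 CPM with FGF8 and 1077 CPM with BSA (-1.29, -1.35 to -1.24). After thinning, Cdkn1c was detected in 67.3% of FGF8 and 83.1% of BSA members, against 27.1% and 32.0% of endothelial barcodes. Mest, a paternally expressed hydrolase, followed at 181 and 345 CPM (-0.93), and Meg3 at 900 and 1267 CPM (-0.49). H19 was at 415 and 602 CPM (-0.54). Mirg lay at -0.03, and Nnat, Slc38a4 and Peg10 lay slightly above 0.

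Several genes known from adventitial fibroblasts were lower with FGF8. Of the 20 genes of the list, 5 were below -1, where 3.77% of all genes were, none was above 1, and the median was -0.31. Clec3b was at 421 and 943 CPM (-1.16), Sema3c, a secreted guidance ligand, at 109 and 238 CPM (-1.13), Dpp4 at 11.9 and 37.9 CPM (-1.67), and Wnt2 at 12.3 and 32.8 CPM (-1.41), with Efhd1 as the fifth on 21 and 35 UMIs. Dpp4 was lower in both sexes, at -1.35 and -1.55. Ly6a and Ly6c1, which encode surface antigens of the same cells, had ratios of 0.04 and 0.07. The other Pdgfra-detected cells had a list median of -0.49 and a Dpp4 ratio of -1.73. The ratios of the 8 marker genes are conditioned by the rule that required them and are given only as a description. They were 0.79 for Lbp, 0.08 for Pi16, 0.03 for Cygb, -0.10 for Tmeff2, -0.32 for Lpl, -0.44 for Dlk1, -0.61 for Agtr2 and -0.73 for Ebf2. Among male cells alone Dlk1 stood at 0.39 and Lpl at 0.51.

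Adipogenic factors did not move together. Of 16 preadipocyte and adipocyte genes measured, 8 were above 0 and 8 below, with a median of 0.16 that was -0.15 without possible doublets. The early factors Cebpb (342 and 182 CPM, 0.91) and Cebpd (164 and 91.3 CPM, 0.85) were higher with FGF8, and Pparg, the master regulator of adipocytes, was at 9.73 and 16.1 CPM (-0.72), with a Pparg ratio of -1.15 among female and 0.59 among male cells. Cd36, a fatty acid receptor, had a ratio of 3.02 that was -0.23 without possible doublets. Angptl4, which inhibits lipoprotein lipase, was at 236 and 124 CPM (0.92). Complement genes had a median of -0.07, with Cd55 lowest at -0.69, and C4b (-0.16) and Cfb (0.01) were close to equal. Among Wnt antagonists and R-spondins, Dkk2 was at 69.1 and 141 CPM (-1.03) and Sfrp1 at 91.7 and 60.6 CPM (0.60). Among genes of the upper dermis, Crabp1, a retinoic acid-binding protein, was at 565 and 110 CPM (2.36), with 0.66 in the other Pdgfra-detected cells and 2.40 without possible doublets. The difference was not particular to members. In the cells with exactly 3 markers, just outside the rule, Crabp1 was at 1016 and 260 CPM. In members with exactly 4 it was at 991 and 171 CPM.

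By the size of the ratio alone, the 12 genes highest in FGF8 members, among those of the same sign in both sexes, were Stfa3, Calm4, Serpinb2, Sprr1a, Ly6d, Krt71, Dmkn, Spp1, Gm47080, Reg1, Cstdc5 and Perp, and most rested on single cells. In 10 of the 12, 1 FGF8 member held more than 50% of the UMIs, and for 8 of them it was the same cell, a member of 74716 UMIs with 5469 keratinocyte-marker UMIs and 4 of the 8 rule markers. Calm4 had 1020 of its 1106 UMIs there, and its ratio of 5.86 was 2.31 without the top cell. Sprr1a, a protein of the cornified envelope, went from 5.35 to 1.20, with an interval that held 0 (-1.12 to 4.48). At the other end Ccl5 (-4.77) had 86 of its 94 BSA UMIs in 1 cell. The lower genes that were spread over many cells were Adamts19, Dpp4, Pamr1 (22.9 and 64.1 CPM, -1.49), Htr1f (13.3 and 38.1 CPM, -1.52) and Aldh3a1 (4.58 and 13.1 CPM, -1.52). Ntrk3, Ostn, Gm13986, Mdfic2 and Adamts16 also stood among the 12 lowest, with ratios from -2.61 to -1.54.

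Without possible doublets the highest genes were Spp1, Gm47080, Il1rl1, Cxcl2, Coch, Gm41609, Ereg, Cxcl5, Mmp3, Plk1, Ptgs2 and Crabp1. Some ratios rose, with Spp1 going from 4.97 to 6.43, Il1rl1 from 2.77 to 3.27 and Cxcl2 from 2.54 to 3.23. Coch went from 1.77 to 3.10, Cxcl5 from 2.36 to 2.98 and Ptgs2 from 2.02 to 2.41. Gm47080 (4.59), Ereg (3.01) and Mmp3 (2.94) changed little. Ereg, the EGF family ligand epiregulin, was at 40.5 and 4.97 CPM in all members (3.03), in 69 and 15 cells. Gm47080, a gene model with no assigned function, had 126 UMIs in 35 FGF8 members and none in BSA members. After thinning it was detected slightly less often in FGF8 members than in the 3.65% of macrophage and 3.12% of endothelial barcodes. Before thinning, at unequal depth, it was detected in 7.88% of FGF8 members, against 6.17% and 4.31% of those barcodes. The Gm47080 level was 12 CPM in FGF8 members and 4.91 CPM in FGF8 macrophage barcodes. The part of free RNA in the Gm47080 values was not tested. Coch had 111 of its 154 FGF8 UMIs in 1 cell. The lower genes were then Adamts19, Mdfic2, Aldh3a1, Pamr1, Dpp4, Abca8a, Cxcl15, Htr1f, Wfdc1, Hhip, Adamts16 and Ogn, of which 7 also stood among the 12 lowest of all members.

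Spp1, which encodes osteopontin, was at 243 CPM in FGF8 members and 7.78 CPM in BSA members (4.97, 4.55 to 5.41), far below the 2949 and 694 CPM of the other Pdgfra-detected cells. After thinning, Spp1 was detected in 28.6% of FGF8 members, against 30.2% of endothelial and 51.8% of macrophage barcodes. Its detection in members was thus no higher than in the barcodes used to read the background. The same held for Prg4, lubricin of the joint surface, which the rule limited to fewer than 10 UMIs: 14.1% of thinned FGF8 members carried it against 18.8% of endothelial barcodes. Of the genes besides Prg4 that the study examined as joint or cavity markers in these samples, Gdf5 had no UMI in members. Has2, a hyaluronan synthase, was at 72.9 and 42.1 CPM (0.79), the hyaluronan receptor Cd44 at 233 and 158 CPM (0.57), and Wnt9a at 19.6 and 36.4 CPM (-0.89). Col2a1, type II collagen of cartilage, had a ratio of -0.97 in all members and 2.81 without possible doublets, and 1 cell held 666 of its 835 UMIs with FGF8 and 635 of 940 with BSA. Col2a1 was detected in 6.22% and 8.9% of thinned members against 13.5% and 13.3% of endothelial barcodes.

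Members with a Pi16 UMI were compared with those without to describe variation within the group. They were 245 of 444 with FGF8 and 126 of 239 with BSA, at median depths of 20609 and 25928 UMIs against 21172 and 22280 for the rest. Of 13031 genes compared, 27.4% were higher and 25.4% lower in Pi16-detected members of both libraries. Of 18 genes of the adventitial list, 16 were higher in both and none lower, with medians of 0.53 and 0.59, which were 0.41 and 0.65 after thinning. Dpp4 was at 14.9 CPM in Pi16-detected and 8.24 CPM in other FGF8 members, and at 54.1 and 17.1 CPM in BSA members. Wnt2 was at 18.4 and 4.86 CPM, and at 45.9 and 15.9 CPM. Mfap5, the most abundant of these examples, was at 1376 and 719 CPM with FGF8, and at 1737 and 884 CPM with BSA. Elastic fibre genes were higher in both for 12 of 16, complement genes for 6 of 9, and AP-1 genes for 10 of 12. Endothelial markers also differed, with 3 of 4 higher in both and medians of 1.17 and 1.81, which were 0.25 and 2.18 after thinning. So did S100a8 (3.05 and 3.76) and S100a9 (2.91 and 4.82), which neutrophils express at high levels. The part of these cells in the values above was not tested.

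Preadipocyte genes were split, with 6 of 14 higher and 5 lower in both and medians of 0.10 and -0.05. Pparg of that list was at 5.91 CPM in Pi16-detected and 14.4 CPM in other FGF8 members, and at 8.23 and 26.2 CPM in BSA members. Pericyte and smooth muscle markers were also split, with 1 of 7 higher and 4 lower in both and medians of -1.42 and -0.14. Rgs5 (17.4 and 165 CPM with FGF8, 3.53 and 36.8 CPM with BSA) and Notch3 (9.21 and 30.9 CPM, 13.2 and 30.3 CPM) were lower, Kcnj8 had ratios of 0.20 and 0.53, and Abcc9 had -1.42 and 0.80. The Wnt inhibitor Wif1 was at 36.7 and 103 CPM, and at 22.6 and 88.7 CPM. Lpl was lower in both (-0.57 and -0.21) and Dlk1 higher (0.80 and 0.81). A member without Pi16 had to reach 4 markers through the other 7, so these last values depend on the rule. Globin genes were also lower in Pi16-detected members, with Hbb-bs at 1193 and 2141 CPM with FGF8 and 53.8 and 3543 CPM with BSA, where a few cells held most of them.

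**Figure D5:**
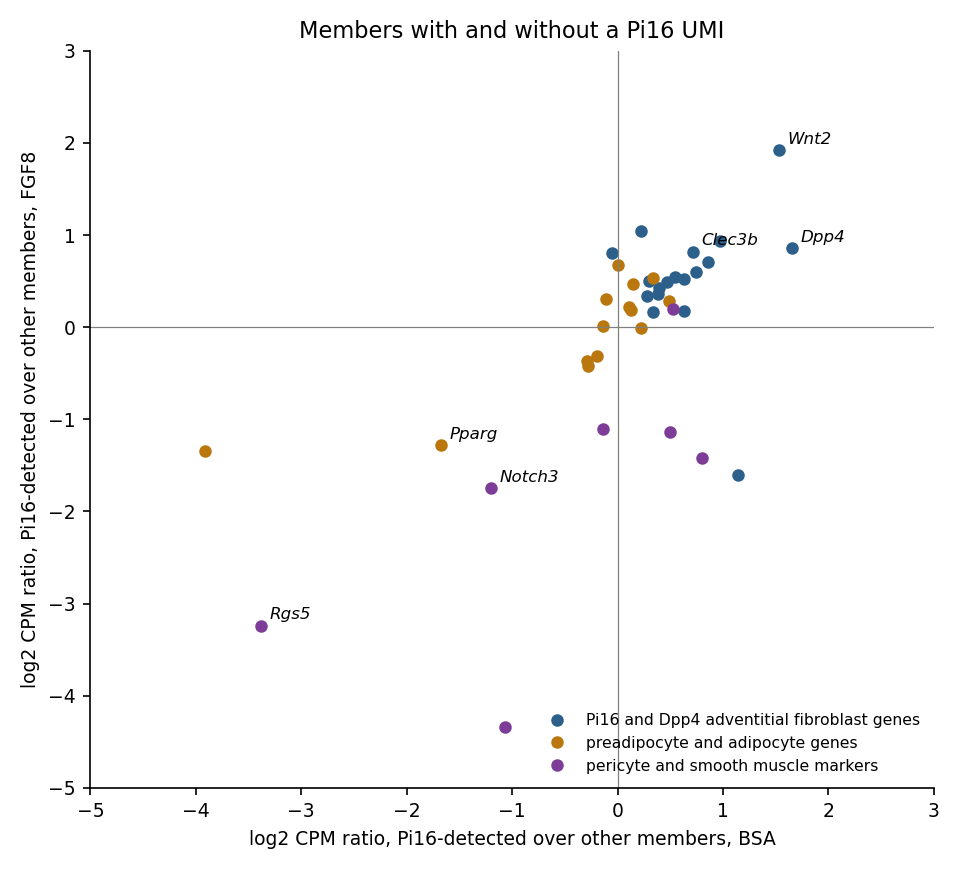
Log2 CPM ratio of Pi16-detected members over members without a Pi16 UMI in the BSA library (horizontal) and the FGF8 library (vertical), 1 point per gene of 3 lists. Most genes of the Pi16 and Dpp4 list (blue) lie in the upper right, with Wnt2 at 1.53 and 1.92, Pparg of the preadipocyte list (orange) lies at -1.67 and -1.28, and the pericyte marker Rgs5 (purple) at -3.38 and -3.24.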

How the data were processed

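The authors deposited unnormalized UMI counts for each gene in each called barcode, made with Cell Ranger 9.0.0 on a GRCm39 reference. The submitters' notes also name mm10 and Seurat, with no role given. A barcode was kept when its detected genes numbered above 200 and below 7500 and mitochondrial UMIs made up under 15%, and the rule in the report chose the members. Each library's member counts were added up and scaled to CPM. Log2 ratios are given for genes that reached 10 UMIs when both libraries were combined, with exact conditional (ratios), Poisson (levels) and Clopper-Pearson (shares) intervals. A count of 0 was set to a floor of 3 counts. With 1 library per treatment there was no test between conditions. Cell sex was called from Xist and Y-linked genes. No doublet caller was run. The possible-doublet alternative without erythroid markers, the one without the top cell and the endothelial background were chosen after seeing the data.

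The members and the gene lists were chosen with earlier results of these data known. Named genes were the rule genes, the 12 highest and 8 lowest of members over other cells, the 12 highest and 12 lowest of FGF8 over BSA, and in each list the largest ratios and genes whose role is explained. A few genes that these rules name are not reported here. The scripts were tested on simulated data. Python 3.11.15, numpy 2.4.6, scipy 1.17.1, pandas 2.3.3 and matplotlib 3.10.9 were used.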

Additional observations from a re-analysis of the deposited data

Results flagged for a closer look

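The following genes had ratios of FGF8 over BSA of opposite sign in members and in the other Pdgfra-detected cells, given in that order, and the difference itself was not tested. Apcdd1, a Wnt inhibitor, had 1.03 and -0.61. Wif1, another Wnt inhibitor, had 0.37 and -0.65. Trps1 had 0.18 and -0.49. Coch had 1.77 and -0.24, which depended on few cells. Pdgfra, which the rule required, had 0.29 and -0.23. Ccl8 had 0.34 and -0.26, and Mmp19 0.34 and -0.26. The differences were smaller for Fbln2 (-0.14 and 0.07), Fos (-0.14 and 0.04) and Lrp1 (0.19 and -0.06).

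The following genes had ratios of opposite sign in female-called and then male-called members, again with no test of the difference and with 47 male-called members in the BSA library. Of the rule genes, Dlk1 had -0.52 and 0.39 and Lpl -0.26 and 0.51. Saa3 had 5.76 and -1.07 and Col2a1 -3.81 and 2.66, where single cells held much of the signal. The remaining genes were Atf3 (-0.32 and 2.28), Cadm3 (0.90 and -0.67), Creb5 (-0.52 and 0.38), Fbn2 (0.17 and -0.17), Osr1 (-0.71 and 0.36), Rspo2 (0.75 and -1.22) and Timp3 (0.33 and -0.43).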

How the results depend on the processing

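The share of members moved with the rule: for FGF8 and BSA it was 9.17% and 10.3% with at least 3 markers, 4.47% and 5.29% with at least 5, 8.7% and 10.1% with no limit on Prg4 or Tnmd, and 3.14% and 3.59% when the rule was applied after thinning. It stayed lower with FGF8 in each of these, but the intervals of the libraries overlapped each time. Within female-called cells it was higher with FGF8, at 8.95% against 8.54%. The G2 and mitosis median was 1.12 with at least 5 markers, 1.15 with a stricter cell filter, 1.58 and 0.95 in female-called and male-called cells, 1.16 and 1.47 without possible doublets with and without erythroid markers counted, 2.11 without the 10% of members with the most UMIs, and 1.52 without the top cell of each gene. The collagen median was -0.40 with the stricter filter, -0.42 after thinning and -0.42 without possible doublets with erythroid markers counted. Genes above 1 numbered 771 after thinning, 797 in female-called cells, 661 without possible doublets with erythroid markers counted and 342 at 100 UMIs. Genes below -1 numbered 918 in female-called cells, 97 at 100 UMIs and 1216 at 1 UMI.

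Ratios beyond 1 in either direction that changed sign were Mmp13 (-0.14 with at least 3 markers), Coch (-1.12 with at least 5, -0.72 in male-called cells), Frzb (-0.11), Krt71 (-1.60) and Sprr1a (-0.96) with no limit on Prg4 or Tnmd, Cd36 (-0.15), Gmnn (-0.05), Htr1f (0.10) and Rad51ap1 (-0.06) without possible doublets with erythroid markers counted, Cd36 (-0.23) without them when erythroid markers were not counted, Gpihbp1 (-0.31) without its top cell, and Saa3 in BSA members over other cells (-0.39 in female-called cells). The causes were not tested. Smaller ratios changed sign too, among them Col2a1 (from -0.97 to 2.81 without possible doublets, erythroid markers not counted) and Pparg (from -0.72 to 0.59 in male-called cells). Of the recomputed values, 1402 of 5156 gene ratios of FGF8 over BSA moved beyond their interval and 12 reversed, 54 of 120 ratios of members over other cells moved, 8 of 12 shares moved, 7 of 30 gene counts moved, and 16 of 285 list medians moved. No paired analysis was possible because each treatment had 1 library, and the spread between pools is unknown, which limits every comparison of FGF8 with BSA.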
